A study of Mus musculus with 24 samples.

Results

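The genes described here encode the proteins of the cytosolic ribosome. Members were all probe sets assigned to 1 gene whose symbol was Rpl or Rps followed by a number, or was Rplp0, Rplp1, Rplp2 or Rpsa, without the S6 kinases, Rps19bp1 and pseudogene symbols. The rule used names and no measured value, and it left out 16 probe sets of 10 genes that begin with the same letters. It found 134 of the 45037 probe sets that were tested and 71 of the 17097 named genes on the array, with 84 probe sets of 46 large subunit genes and 50 probe sets of 25 small subunit genes. Of these genes, 37 were measured by 1 probe set and 34 by several, with at most 5. Where a gene had several, the brightest one over all 24 arrays represents it below.

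The study examined a mouse model of spinocerebellar ataxia type 2, in which an expanded CAG repeat lengthens a glutamine tract in ataxin-2, a protein that binds RNA and associates with polyribosomes. RNA from cerebellum, brainstem and liver of animals aged 18 months was hybridised to Affymetrix expression arrays, with 4 mice in each of the 6 groups. WT animals carried the murine Atxn2 gene with 1 CAG, and the Atxn2 Knock-In animals, called CAG42 here, carried 42 CAG codons in the endogenous gene. In the study's naming CAG42 animals are homozygous. The selection cassette had been removed with Flp recombinase, and the line, made in embryonic stem cells of a strain other than C57BL/6, had been backcrossed into C57BL/6 before WT and CAG42 littermates were taken. Expression of the mutant protein therefore followed the Atxn2 promoter in every cell type, with no transgene and no Cre. Nothing in the labels states whether one mouse gave all 3 tissues, so p-values measure the spread between these samples, and the number of arrays limits their precision.

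A eukaryotic ribosome joins a large and a small subunit, each built from ribosomal RNA and a fixed set of proteins that are made in near equal numbers. The mRNAs of ribosomal proteins are among the most abundant of any cell, and most begin with a cytidine followed by a run of pyrimidines, the 5′ terminal oligopyrimidine (TOP) motif. Through this motif, mTORC1 and the RNA-binding protein LARP1 set how many of these mRNAs are translated, a step that an array of total RNA does not read. A few members have paralogues that can take their place in the subunit, such as Rpl22l1 for Rpl22 and Rpl3l for Rpl3, the latter best known from striated muscle. The genome also holds many processed copies of these genes, so a probe set ending in _x_at or _s_at can collect signal from more than 1 transcript. Such endings were found for 44 and 8 of the 134 members, and a further 45 ended in _a_at, which marks probes shared by transcripts of 1 gene.

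The transcription starts of the members are shown first because of the TOP motif. Most members with an annotated start had no long pyrimidine run there, as counted below. RefSeq promoters on GRCm38.p6 were matched for 57 of the 71 genes, with 68 starts. Each window below holds 15 bases before and 15 from the annotated start, read 5′ to 3′ on the strand of the gene. Capitals mark a run of at least 6 pyrimidines (C or T) that lies within 2 bases of the start. Rps6, Rps18 and Rpl15 are examples of the members with such a run.
Rps6, chr4:86857353-86857382, minus strand: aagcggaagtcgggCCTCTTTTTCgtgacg
Rps18, chr17:33955651-33955680, minus strand: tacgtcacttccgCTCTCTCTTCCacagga
Rpl15, chr14:18270972-18271001, minus strand: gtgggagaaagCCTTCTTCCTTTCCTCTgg

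The next windows belong to the members with the largest tissue differences described below. By the representative probe sets as deposited, the first 4 were higher in brain than in liver, and the other 3 were higher in liver. They were chosen by these values. The direction of Rpl14 in cerebellum turned with quantile scaling, and that of Rpl22 rests on the probe set chosen, as given below. Any link between the run and the direction was not tested.
Rps21, chr2:180257364-180257393, plus strand: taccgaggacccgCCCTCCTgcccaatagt
Rpl14, chr9:120571502-120571531, plus strand: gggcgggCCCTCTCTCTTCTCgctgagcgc
Rps15a, chr7:118116133-118116162, minus strand: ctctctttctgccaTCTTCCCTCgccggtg
Rpl22l1, chr3:28805493-28805522, plus strand: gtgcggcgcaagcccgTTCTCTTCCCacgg
Rpl22, chr4:152324421-152324450, plus strand: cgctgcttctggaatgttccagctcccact
Rps27l, chr9:66946071-66946100, plus strand: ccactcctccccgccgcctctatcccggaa
Rps2, chr17:24720048-24720077, plus strand: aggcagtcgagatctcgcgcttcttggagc

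A last set compares paralogues measured in the same mice, Rpl36a with Rpl36al, together with a window each of Rpl3l, Rpl39l and Rpl7l1. Rpl22, Rps21, Rps27l and Rpl3l have a further start in the table that is not shown.
Rpl36a, chrX:134585639-134585668, plus strand: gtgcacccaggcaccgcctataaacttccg
Rpl36al, chr12:69184053-69184082, minus strand: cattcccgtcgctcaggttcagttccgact
Rpl3l, chr17:24727811-24727840, plus strand: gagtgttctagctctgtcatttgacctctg
Rpl39l, chr16:10170213-10170242, plus strand: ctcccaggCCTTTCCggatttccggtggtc
Rpl7l1, chr17:46782642-46782671, minus strand: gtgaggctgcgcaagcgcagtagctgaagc

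A run of this kind stood at a start of 22 of the 57 genes (38.6%), against 4878 of 27025 genes in the whole table (18%). A C at the start itself was found in 18 genes (31.6%), against 18.9% of all. The letters CCGGAAG, the core of sites for ETS factors such as GABP, occurred on either strand of the 300-base promoter in 25 genes (43.9%), against 9.93% of all. TATAAA between 45 and 11 bases before the start, on the strand of the gene, was found in 1 member, Rpl22l1 (1.75%), against 2.68% of all. These letter matches describe annotated starts, which can lie a few bases from the start a cell uses.

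The labelled tissues carried their defining markers. All 6 measured hepatocyte markers had WT means between 12.0 and 13.7 in liver on the deposited log2 scale, and none exceeded 3.63 in cerebellum or 4.06 in brainstem. The 4 measured granule cell markers lay between 10.7 and 12.2 in cerebellum, between 6.47 and 8.23 in brainstem and at or below 3.28 in liver. The 4 markers of brainstem neurons lay between 5.1 and 9.0 in brainstem and between 2.98 and 6.49 in cerebellum. The deposited values had been normalised by RMA, yet the median over all probe sets of an array ran from 4.42 to 4.54 in cerebellum, from 4.56 to 4.62 in brainstem and from 4.14 to 4.25 in liver. One array stood apart from its group, WT replicate 1 of liver, with the lowest weight of all (0.122, against 0.429 for the next lowest).

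Most members were among the brightest probe sets on the array. The means of the 71 representative probe sets over 24 arrays ran from 3.41 to 12.98 with a median of 11.82, and 65 of them lay at or above 10. In WT cerebellum, brainstem and liver their median percentile among all probe sets was 99.3, 99.5 and 99.3. The 4 below 6 were Rpl3l, Rpl39l, Rpl14 and Rps15a, and since no background signal was used here such low values cannot be told from background. The further 63 probe sets of these genes had a median of 9.30, and 19 of them lay below 6. These levels place a probe set within the array and do not rank the mRNAs against each other, since probes differ in how well they bind.

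The members varied little between animals. The median SD of a member within a group lay between 0.0616 and 0.12, against 0.115 to 0.223 over all probe sets. Most members are bright, and their spread was not compared with that of equally bright probe sets. The mean over all members differed between mice with an SD of 0.0356 to 0.0616 in the brain groups, and of 0.0971 in WT and 0.0733 in CAG42 liver. In WT liver the member mean of replicate 1 lay 0.106 below the group mean and that of replicate 3 lay 0.098 above it.

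In WT mice the ribosomal protein mRNAs were lower in cerebellum than in brainstem, by a small and even step. Of the 71 genes, 67 were lower in cerebellum and none was higher in the limma fit across all probe sets (Benjamini-Hochberg adjusted p under 0.05). The median difference was -0.42 on the log2 scale, or 1.34-fold, and the differences ran from -0.99 to 0.32. All 25 small subunit genes were lower, as were 42 of 46 large subunit genes, and the 4 that were not called were Rpl3l, Rpl7l1, Rpl39l and Rpl29. Counted over probe sets, 113 of 134 were lower and 7 higher, where 28.2% of all probe sets on the array were lower and 18.8% higher, 47% in all.

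The median step was larger than that of the array as a whole, a description with no test. The median of all 17097 named genes was -0.14, with 2404 higher and 6211 lower. Among the 4675 probe sets at least as bright as the lower quartile of the members, the median was -0.29, with 605 higher and 2511 lower. Rpl6, a large subunit protein, is an example with a larger step than most, beyond the lower quartile of the 71 genes (-0.55). Its WT cerebellum values were 11.26, 11.25, 11.33 and 11.37, and its WT brainstem values were 11.88, 11.98, 12.02 and 11.94. The groups did not overlap, and the difference of -0.65 (SE 0.0745, adjusted p = 1.03e-07, limma) was 1.57-fold.

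Cell type markers moved with this difference. All 5 oligodendrocyte markers (median -1.48) and all 6 microglia markers (median -1.59) were lower in cerebellum than in brainstem, 5 of 7 choroid plexus markers were lower, and all 4 granule cell and all 5 Purkinje cell markers were higher. In these bulk samples fewer cells of a type and less RNA per cell cannot be told apart, and the part of the markers in the result was not tested.

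Against liver the direction depended on the brain region. In brainstem, 53 of 71 genes were higher than in liver and 7 lower, with a median of 0.36. In cerebellum, 15 genes were higher than in liver and 29 lower, with a median of -0.08. Over probe sets, 97 of 134 were higher and 19 lower in brainstem (background 46.5% and 34.3%, 80.8% in all), and 41 were higher and 48 lower in cerebellum (background 44.4% and 37.3%, 81.8% in all). Both counts of members called in cerebellum against liver lie below or near the background of that comparison. The median over all named genes in brainstem against liver was 0.35, close to that of the members, and the bright probe sets had medians of 0.97 in brainstem and 0.755 in cerebellum against liver.

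Put in order, 60 of 71 genes had their highest WT mean in brainstem, 11 in liver and none in cerebellum. The top tissue differed from the next by the test for 53 of the 60 and for 7 of the 11. The lowest mean was in cerebellum for 39 genes, where it differed from its neighbour for 26, in liver for 29, where it differed for 15, and in brainstem for 3, where it differed for none. Both steps of the order were called for 31 genes.

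**Figure D1:**
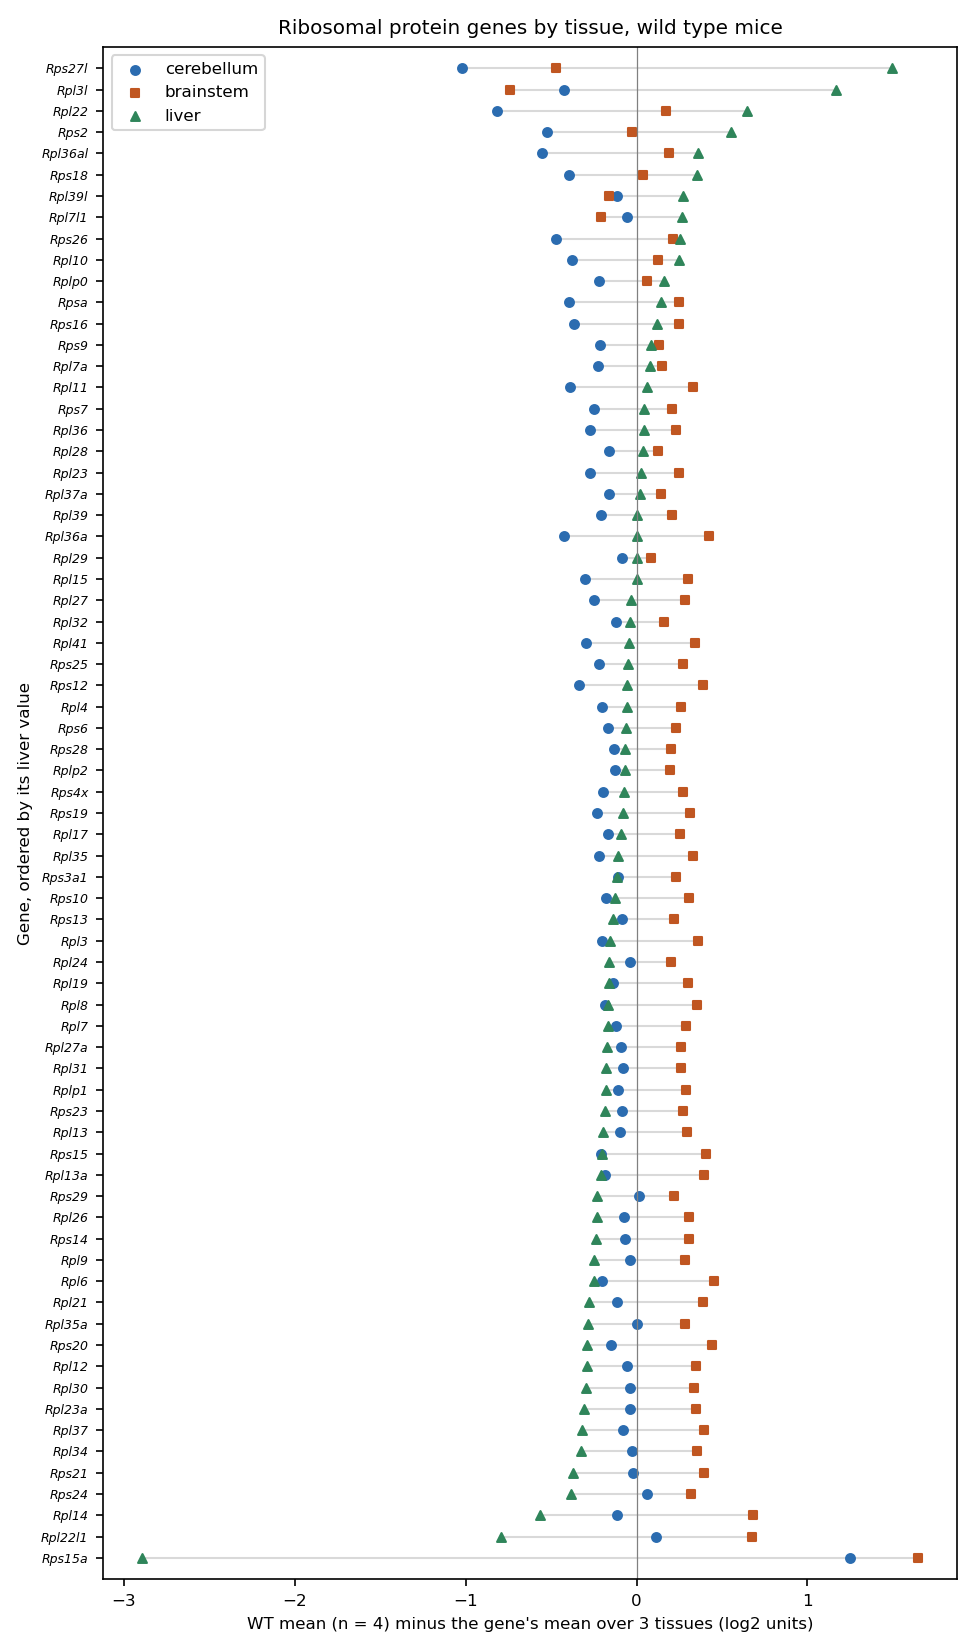
WT mean log2 level of each of the 71 genes in cerebellum, brainstem and liver, minus that gene's mean over the 3 tissues, ordered by the liver value. Brainstem points lie above cerebellum points for all but 3 genes, while the liver points cross from below to above both, with Rps27l at the high end and Rps15a at the low end.

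The tissue differences are relative to how the arrays were scaled, and for liver the scaling decided the direction. With the median of each array subtracted, the median over all probe sets moved from -0.07 to 0.03 in cerebellum against brainstem, from 0.08 to -0.24 in cerebellum against liver and from 0.16 to -0.25 in brainstem against liver. Under that scaling, 61 of 71 genes were lower and none higher in cerebellum than in brainstem (median -0.33). Brainstem against liver turned from 53 genes higher and 7 lower to 16 higher and 23 lower, and cerebellum against liver from 15 higher and 29 lower to 2 higher and 55 lower. Quantile scaling gave 1 higher and 33 lower genes in cerebellum against brainstem (median -0.16), 49 higher and 10 lower in brainstem against liver, and 34 higher and 19 lower in cerebellum against liver.

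Of single genes, Rpl26 was called in opposite directions in cerebellum against liver after median subtraction, as were Rpl23, Rpl32, Rpl36, Rpl39 and Rps7 in brainstem against liver, and Rpl14, Rpl37a and Rpl4 in cerebellum against liver after quantile scaling. For the group, the lower level in cerebellum than in brainstem kept its direction in all 3 scalings, while the position of liver did not. Of the genes called lower in cerebellum than in brainstem as deposited, 4 changed sign after quantile scaling, none of them called. In CAG42 mice, whose arrays entered these contrasts only through the shared estimate of spread, 112 of 134 probe sets were called between cerebellum and brainstem, with a median of -0.34.

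**Figure D2:**
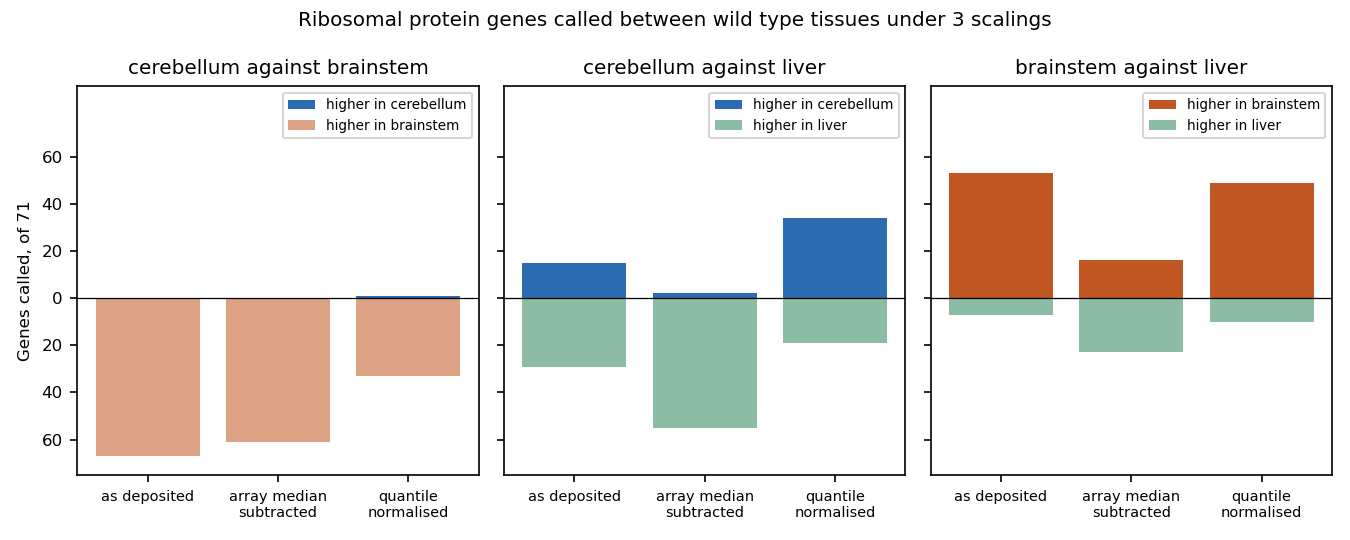
Number of the 71 genes called higher or lower in each pair of WT tissues, with the values as deposited, with the array median subtracted and after quantile scaling. Cerebellum against brainstem has 67, 61 and 33 genes lower, and in brainstem against liver the larger group changes from 53 higher as deposited to 23 lower after median subtraction.

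The members were also compared with each other, which removes a shift common to all of them but not a scaling that moves dim and bright probe sets differently. When the median of the 71 genes was subtracted from each array, a step chosen after the data were seen, 61 genes lay within 0.25 of the median gene in cerebellum against brainstem and none beyond 1. Against liver, 37 genes in cerebellum and 44 in brainstem lay within 0.25, and 5 and 4 lay beyond 1. On this scale the 4 genes that departed most toward liver in both brain regions were Rps27l (-2.32 in cerebellum and -2.28 in brainstem), Rpl3l (-1.39 and -2.23), Rpl22 (-1.27 and -0.79) and Rps2 (-0.88 and -0.90), with Rpl7l1 level with Rpl22 in brainstem (-0.79). Rps15a (4.34 and 4.23), Rpl22l1 (1.11 and 1.15) and Rpl14 (0.65 and 0.93) departed most toward brain. After quantile scaling the same departures were -2.80 and -2.56 for Rps27l, -0.91 and -0.87 for Rps2, and 0.68 and 0.82 for Rpl22l1. The order toward liver changed. Rpl7l1 (-1.41 and -1.82) departed further than Rps2 in both regions, as did Rpl36al in cerebellum (-1.025). Rpl3l (-2.22 and -2.79) lay beyond Rps27l in brainstem. The departure of Rpl14 was not kept, at -0.49 in cerebellum and -0.00 in brainstem.

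Rps27l, a p53-inducible paralogue of Rps27, had the largest difference toward liver among the representative probe sets as deposited. Its 4 WT values were 8.97, 8.95, 9.12 and 9.10 in cerebellum, against 9.53, 9.69, 9.70 and 9.43 in brainstem and 11.65, 11.57, 11.48 and 11.52 in liver. Every liver value lay above every brain value. The difference was -2.52 in cerebellum (SE 0.0869, adjusted p = 3.22e-18, limma), 5.74-fold, and -1.97 in brainstem (adjusted p = 4.7e-16), 3.91-fold. Its other probe sets gave -2.61 and -2.61 in cerebellum, and -2.21 and -2.0 in brainstem. Rps27 itself had no probe set of its own among the members.

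Rps2, a protein near the mRNA entry site of the small subunit, was also highest in liver. Its WT values were 11.50, 11.51, 11.55 and 11.55 in cerebellum, against 11.92, 12.07, 12.15 and 11.96 in brainstem and 12.50, 12.66, 12.67 and 12.60 in liver. The 3 tissues did not overlap. The difference from liver was -1.08 in cerebellum (adjusted p = 3.46e-13), or 2.11-fold, and -0.58 in brainstem (adjusted p = 2.77e-08), and all 3 probe sets of Rps2 gave between -0.96 and -1.25 in cerebellum against liver. Rps18, at the head of the small subunit, gave -0.75 in cerebellum (adjusted p = 1.26e-08) and -0.31 in brainstem (adjusted p = 0.00127) against liver.

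Rpl22 and its paralogue Rpl22l1, which can replace each other in the large subunit, went in opposite directions between brain and liver. Rpl22 was measured at 8.95, 9.08, 8.97 and 8.95 in WT cerebellum, against 9.84, 10.12, 10.06 and 9.89 in brainstem and 10.43, 10.45, 10.53 and 10.42 in liver. Rpl22l1 was measured at 10.95, 11.06, 11.04 and 11.11 in WT cerebellum, against 11.57, 11.61, 11.72 and 11.50 in brainstem and 10.14, 10.16, 10.24 and 9.98 in liver. For each gene the 3 tissues formed separate ranges, with liver on top for Rpl22 and at the bottom for Rpl22l1.

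The difference from liver was -1.47 for Rpl22 in cerebellum (adjusted p = 3.45e-15) and -0.48 in brainstem (adjusted p = 1.89e-06). For Rpl22l1 it was 0.91 (adjusted p = 1.5e-08) and 1.47 (adjusted p = 2.51e-12). A dimmer probe set of Rpl22, whose ending marks probes shared with other transcripts, had WT means of 8.13, 7.94 and 6.69 in cerebellum, brainstem and liver and so gave 1.44 and 1.25 against liver. The direction of Rpl22 therefore rests on the probe set chosen, and with the mean of both probe sets the difference was -0.02 in cerebellum (adjusted p = 0.837) and 0.39 in brainstem. Both genes were lower in cerebellum than in brainstem, Rpl22 by a difference of -0.99, the largest among the representative probe sets, and Rpl22l1 by -0.56.

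Rpl36a and Rpl36al, the X-linked gene and its autosomal retrocopy, kept a more even order. Rpl36a was measured at 10.73, 10.76, 10.83 and 10.83 in WT cerebellum, against 11.53, 11.69, 11.73 and 11.60 in brainstem and 11.22, 11.28, 11.25 and 11.11 in liver. Rpl36al was measured at 10.38, 10.41, 10.54 and 10.55 in WT cerebellum, against 11.15, 11.22, 11.29 and 11.19 in brainstem and 11.32, 11.47, 11.51 and 11.22 in liver. Cerebellum was the lowest tissue for both without overlap, by -0.85 (adjusted p = 1.14e-09) and -0.74 (adjusted p = 3.05e-07) against brainstem. Brainstem and liver differed for Rpl36a, at 0.42 (adjusted p = 1.42e-05), and overlapped for Rpl36al, at -0.17 (adjusted p = 0.0931).

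Rpl3l, the paralogue of the peptidyl transferase centre protein Rpl3, was dim in all tissues. Its WT values were 3.31, 3.53, 3.37 and 3.19 in cerebellum, against 3.15, 3.04, 3.04 and 2.90 in brainstem and 3.68, 5.18, 5.50 and 5.42 in liver. The liver value of replicate 1, the array of lowest weight, lay near the brain values and the other 3 lay well above them. The measured differences from liver were -1.59 in cerebellum (adjusted p = 4.06e-06) and -1.91 in brainstem (adjusted p = 2.8e-07). Since the brain values lie at the lower end of the scale, only a lower bound of their size can be given, and the place of Rpl3l in the order of departures is uncertain. Rpl3 itself did not differ by the test between cerebellum and liver (-0.04, adjusted p = 0.565) and was higher in brainstem by 0.52.

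By their representative probe sets as deposited, the other paralogues had smaller differences. Rpl7l1 was lower than in liver by a difference of -0.32 in cerebellum (adjusted p = 0.00582) and -0.48 in brainstem, while Rpl7 gave 0.05 (adjusted p = 0.515) and 0.45. After quantile scaling the difference of Rpl7l1 was larger, at -1.28 in cerebellum and -1.51 in brainstem. A further probe set of Rpl7l1 gave 0.06 and 0.29 as deposited. Rpl39l, near the lower end of the scale at 3.24, 3.19 and 3.63, gave -0.39 and -0.44, and Rpl39 gave -0.21 and 0.20. A second probe set of Rpl39 gave -2.18 and -2.42, so its size, and its direction in brainstem, rest on the probe set chosen.

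On the other side stood Rps15a, a protein of the small subunit body measured by 1 probe set. Its WT values were 7.30, 7.04, 7.21 and 7.04 in cerebellum, against 7.84, 7.36, 7.81 and 7.19 in brainstem and 3.11, 2.97, 2.96 and 2.99 in liver. The difference was 4.14 in cerebellum (SE 0.161, adjusted p = 3.73e-17) and 4.54 in brainstem (adjusted p = 5.64e-18). With the liver values at the lower end of the scale, these measured differences are lower bounds for the signal of this probe set. Every ribosome contains this protein, and which of its transcripts the probe set reads was not tested.

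Rpl14, a large subunit protein with a single dim probe set, was measured at 5.20, 4.93, 5.32 and 5.29 in WT cerebellum, against 6.05, 6.25, 6.02 and 5.59 in brainstem and 4.61, 4.67, 4.94 and 4.71 in liver. The difference of brainstem from liver was 1.25 (adjusted p = 6.21e-09). That of cerebellum was 0.45 (adjusted p = 0.00307) as deposited, 0.13 (adjusted p = 0.32) after median subtraction and -0.36 (adjusted p = 0.0151) after quantile scaling. Rps21, a small subunit protein, was higher in brainstem than in liver by 0.77 (adjusted p = 2.02e-09) and in cerebellum by 0.36 (adjusted p = 0.000164).

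**Figure D3:**
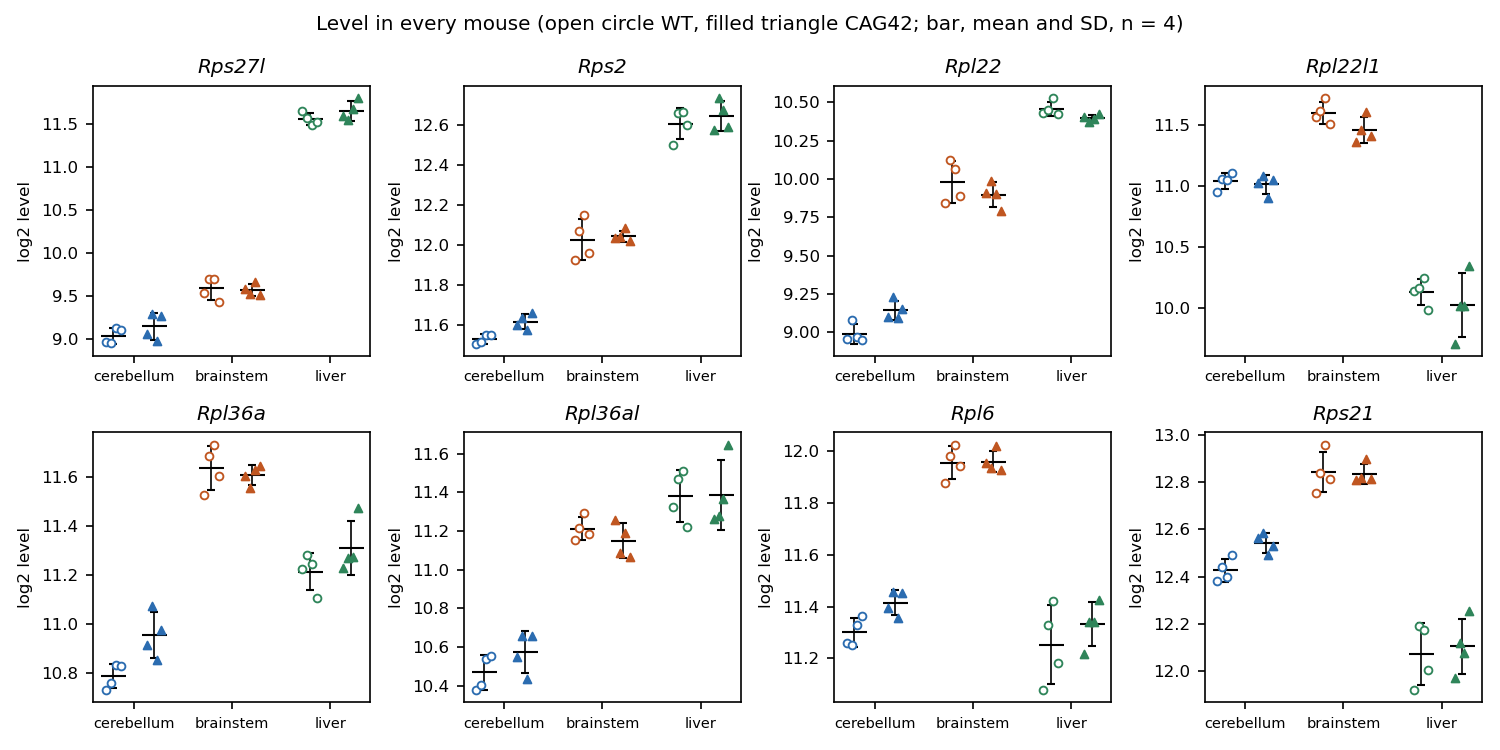
Log2 level of 8 genes (Rps27l, Rps2, Rpl22, Rpl22l1, Rpl36a, Rpl36al, Rpl6 and Rps21) in every sample, by tissue, with open circles for WT, filled triangles for CAG42 and bars for the mean with its SD (n = 4). Brainstem lies above cerebellum without overlap for all 8 genes, Rps27l has no liver value under 11.48 and no brain value over 9.70, and circles and triangles of a tissue lie close together.

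The stalk proteins Rplp0, Rplp1 and Rplp2, which recruit elongation factors to the large subunit, did not share 1 order. Rplp0 was highest in liver, with differences of -0.38 in cerebellum (adjusted p = 9.5e-05) and -0.10 in brainstem (adjusted p = 0.24). Rplp1 and Rplp2 were highest in brainstem, at 0.47 and 0.27 above liver, and gave 0.07 (adjusted p = 0.32) and -0.06 (adjusted p = 0.43) in cerebellum. Rpsa, a small subunit protein also known as the laminin receptor, was lower in cerebellum than in brainstem by a difference of -0.64 (adjusted p = 5.07e-07) and than in liver by -0.54, and brainstem and liver gave 0.10 (adjusted p = 0.24). A second probe set of Rpsa gave -0.17 against brainstem and 0.10 against liver in cerebellum, neither of them called. It gave 0.27 in brainstem against liver. Rps26, which lines the mRNA exit channel, was lower in cerebellum than in brainstem by a difference of -0.69 and than in liver by -0.73. Of 2 X-linked members without a measured paralogue, Rpl10 gave -0.50 against brainstem and -0.63 against liver in cerebellum, and Rps4x gave -0.47 and -0.12 (adjusted p = 0.0949).

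Probe sets of 1 gene often differed by more than the tissues did. Among the 34 genes with several, the range of the WT differences over a gene's probe sets had a median of 0.447 in cerebellum against brainstem, 0.661 in cerebellum against liver and 0.561 in brainstem against liver. In those comparisons 6, 6 and 8 genes had probe sets called in both directions. For cerebellum against brainstem these were Rpl24, Rpl37a, Rpl39, Rpl41, Rps10 and Rps13. Rps24 is an example against liver, where its representative probe set gave 0.44 in cerebellum and 0.70 in brainstem, another 1.61 and 2.08 and a dim one -1.41 and -1.32. The value of 0.44 was no longer called after median subtraction (0.13, adjusted p = 0.132).

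The genotype comparison asked whether the expanded repeat changed the level of these mRNAs in any tissue. No member passed the limma test in cerebellum, brainstem or liver, where 0.0444%, 0.0155% and 0.147% of all probe sets did. At an unadjusted p under 0.05, 2, 1 and 6 of 134 members passed, against 3.59%, 4.17% and 8.61% of all probe sets. The intervals were narrow. The 95% interval of the CAG42 minus WT difference had a median width of 0.156 on each side, and its outer bound stayed under 0.5 for 70, 69 and 70 of 71 genes and under 1 for all of them in each tissue. It included 0 for 69, 71 and 68 genes.

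The small differences nonetheless leaned one way in cerebellum and liver. In cerebellum 65 of 71 genes lay above 0, with a median of 0.06 (1.05-fold), where 50.8% of all named genes did, with a median of 0.0017. In brainstem 20 genes lay above 0, with a median of -0.02 (1.01-fold lower), where 47.9% of all did. In liver 63 genes lay above 0, with a median of 0.07 (1.05-fold), where 52.3% of all did and where 70% of the bright probe sets did, at a median of 0.0593. In the same liver arrays 4 of 6 Kupffer cell markers lay above 0, with a median of 0.18, and 1 was called, at -1.20. No hepatocyte marker was called, and the part of cell types was not tested. The genes share each array, so these counts are not independent measurements. Leaving out single arrays moved the median over probe sets from 0.04 to 0.08 in cerebellum and from -0.05 to -0.01 in brainstem, and from 0.04 (without WT replicate 1) to 0.10 (without WT replicate 3) in liver.

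**Figure D4:**
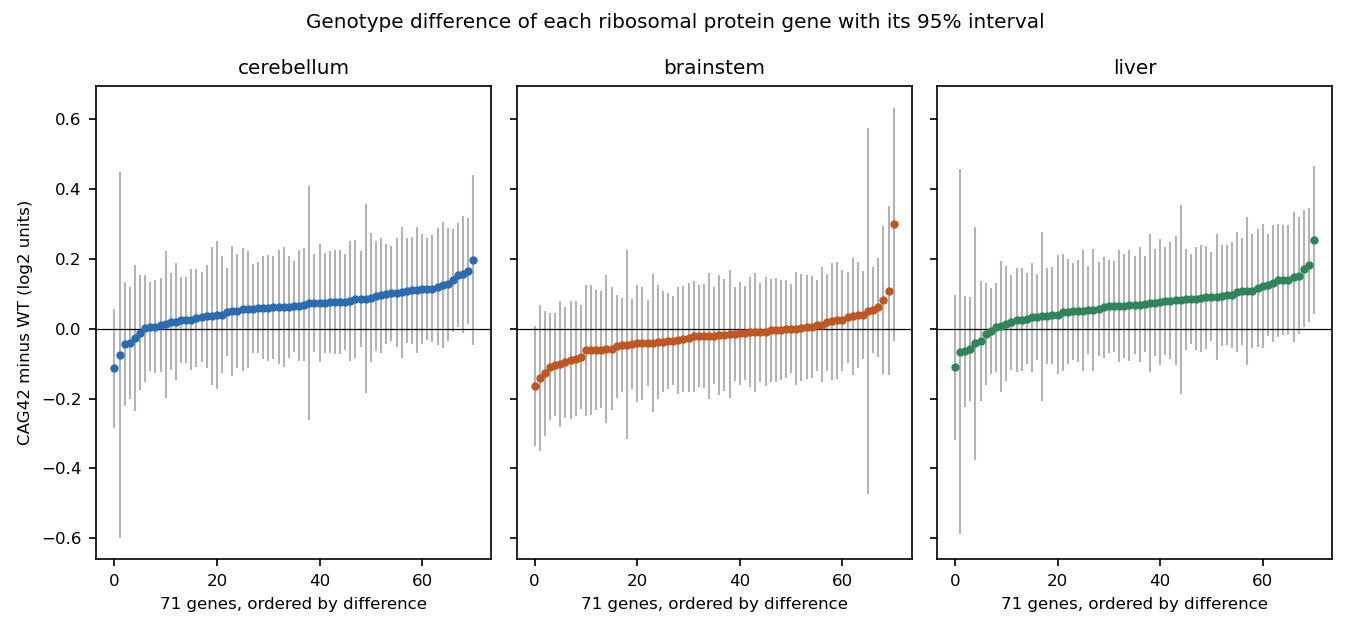
CAG42 minus WT log2 difference of each of the 71 genes with its 95% interval, in cerebellum, brainstem and liver. In cerebellum 65 and in liver 63 points lie above 0 and in brainstem 20, with nearly all intervals crossing 0.

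In cerebellum the values of all 4 CAG42 mice lay above those of all 4 WT mice for 10 probe sets and below them for none, against 1.71% and 2.23% of all probe sets, 3.94% in all. These were the representative probe sets of Rps2, Rps4x, Rps6, Rps16, Rps19, Rps28, Rps29, Rpl13a, Rpl22 and Rpl36a. The differences ran from 0.06 to 0.17. The further probe sets of Rps2, Rps6, Rps28, Rps29 and Rpl22 were not separated. Small subunit genes made up 7 of the 10, against 25 of all 71 genes. Rpl36a had the lowest p. Its WT values of 10.73, 10.76, 10.83 and 10.83 stood against CAG42 values of 10.92, 11.08, 10.85 and 10.98, a difference of 0.17 (SE 0.0734, unadjusted p = 0.0332, adjusted p = 1.00, limma). For Rpl22, WT values of 8.95, 9.08, 8.97 and 8.95 stood against 9.10, 9.23, 9.09 and 9.15, a difference of 0.15 (unadjusted p = 0.0428, adjusted p = 1.00, limma).

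For both genes the lowest CAG42 value lay just above the highest WT value. The separation itself chose these 10 probe sets, so no further test of it is given. Rps16 (0.14, unadjusted p = 0.0639, limma) and Rpl13a (0.16, unadjusted p = 0.0685, limma) came next. In the same arrays 6 of 7 choroid plexus markers lay above 0 with a median of 0.91 (range -0.31 to 1.08), and both erythrocyte markers lay above 0 (0.53 and 0.81), none of them called. The erythrocyte markers also lay above 0 in brainstem (0.44 and 0.93), where the members leaned the other way, and in liver (0.23 and 0.42). In brainstem 6 of 7 choroid plexus markers lay above 0 as well, with a median of 0.17. All 6 microglia markers lay above 0 in cerebellum (median 0.13), and 3 of 6 did in brainstem. The part of the markers in the lean was not tested.

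In brainstem 3 probe sets were separated by genotype, against 3.7% of all. Rpl4 was higher by 0.05, a second probe set of Rpl9 higher by 0.31 and a further probe set of Rps10 had a difference of -0.14. The lowest p of a representative probe set belonged to Rpl21 (-0.16, unadjusted p = 0.0596, limma), whose other probe sets gave -0.20 and -0.27. Rps15a gave 0.30 (unadjusted p = 0.0766, limma), from WT values of 7.84, 7.36, 7.81 and 7.19 and CAG42 values of 7.68, 8.17, 8.23 and 7.30, which overlapped. Rpl30 (-0.13), Rps24 (-0.11), Rpl11 (-0.10) and Rpl22l1 (-0.14) also lay below 0.

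In liver 2 probe sets were separated, against 2.76% of all, a second probe set of Rpl37a and Rpl22. That of Rpl37a was measured at 5.58, 5.52, 5.49 and 5.50 in WT and 5.68, 6.13, 5.74 and 5.66 in CAG42, a difference of 0.28 (unadjusted p = 0.00424, adjusted p = 0.292, limma). The CAG42 value of 6.13 stood apart, and the brightest probe set of Rpl37a gave 0.05. Rpl22 had a difference of -0.06.

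Rpl7l1 had the lowest p of the representative probe sets in liver. Its WT values were 8.13, 7.81, 7.68 and 7.75 and its CAG42 values 7.87, 8.14, 8.15 and 8.23, a difference of 0.25 (SE 0.102, unadjusted p = 0.0209, adjusted p = 0.472, limma). The WT value of replicate 1 lay among the CAG42 values and the other 3 below them. Without that array, 3 members were called, where 6.39% of all probe sets were. They were Rpl7l1 (0.35, adjusted p = 0.0341, limma), a dim probe set of Rpl41 (0.63, adjusted p = 0.0379) and Rpl3l (-0.49, adjusted p = 0.0389). The other probe sets of Rpl7l1 gave -0.28 and 0.09 with all arrays. Without the array, 54 of 71 genes lay above 0 in liver, with a median of 0.04. Rpl23a (0.18, unadjusted p = 0.0307, limma) and Rpl29 (0.17, unadjusted p = 0.0442, limma) followed in liver, both with an interval above 0.

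No member had a genotype difference that itself differed between tissues by the limma test, where 0.00222% of all probe sets did between cerebellum and brainstem and 0.00888% did in each comparison with liver. At an unadjusted p under 0.05, 1, 1 and 3 members passed, against 1.68%, 3.98% and 4.69% of all probe sets. Rpl22 had the lowest p between cerebellum and brainstem, where its effects of 0.15 and -0.08 differed by 0.24 (unadjusted p = 0.0294, adjusted p = 1.00, limma). Rpl6, Rplp0, Rpl21 and Rpl9 lie on chromosome 5 with Atxn2, and the nearest, Rpl6, with 12 protein-coding genes between, gave 0.11 (unadjusted p = 0.137, limma), 0.00 and 0.08 in cerebellum, brainstem and liver.

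The other genes of the translation machinery were examined by lists. Fau, whose product is a fusion with the small subunit protein eS30 and which the symbol rule leaves out, had -0.34 in cerebellum against brainstem (adjusted p = 8.81e-05), -0.30 against liver (adjusted p = 0.000124) and 0.04 in brainstem against liver (adjusted p = 0.597). In cerebellum against brainstem, 13 of 17 measured mRNAs that also carry a TOP motif were lower and 1 higher, with a median of -0.32, where 36.3% of all named genes were lower and 14.1% higher. Among them were Eef1b2 (-0.59), a subunit of the elongation factor that reloads eEF1A, and Nap1l1 (-0.86), a histone chaperone. The one higher was Vim (0.68), an intermediate filament protein.

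Initiation factors were lower in cerebellum than in brainstem for 7 of 19 and higher for none, with Eif3i at -0.55, and elongation, termination and recycling factors were lower for 2 of 7 and higher for 1. Ribosome biogenesis genes were lower for 16 of 39 and higher for 2, with the snoRNP protein Nop10 at -0.70 and Rpf2, which brings the 5S particle into the large subunit, at -0.75. Of the mTORC1, S6 kinase and LARP1 list 6 of 12 were lower and 2 higher, with Larp1 at -0.63 and the mTOR inhibitor Deptor at -1.24. Of transcription factors that bind ribosomal protein promoters, 1 of 7 was lower, Myc (-1.70), and 3 higher, with Nrf1 at 0.75. Against 36.3% of all named genes, the shares of lower genes in the initiation, elongation and biogenesis lists lay near the background.

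These counts moved with the scaling. Lower and higher genes numbered 10 and 1 of the other TOP mRNAs after median subtraction and 5 and 4 after quantile scaling, where Fau was not called. They numbered 8 and 6, then 11 and 6, of the biogenesis genes, and the medians of initiation and of elongation factors turned to 0.03 and 0.09 after quantile scaling.

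Against liver, the lists had more genes higher than lower in brain as deposited. Of all named genes, 46.5% were higher and 38.3% lower in cerebellum, and 51.8% higher and 33.0% lower in brainstem, so that the counts of the mTORC1 and transcription factor lists lay near the background. In cerebellum, 26 of 39 biogenesis genes were higher and 4 lower, 12 of 19 initiation factors were higher and 3 lower, and 5 of 7 elongation factors were higher and none lower. In brainstem the counts were 29 and 2, 15 and 3, and 6 and 0. The biogenesis direction turned after quantile scaling, with 10 higher and 22 lower in cerebellum and 13 higher and 18 lower in brainstem, and that of initiation factors was lost, with 6 higher and 8 lower and then 8 and 8. The 17 other TOP mRNAs had 9 higher and 6 lower in cerebellum and 13 higher and 1 lower in brainstem, which turned in cerebellum after median subtraction (4 higher and 8 lower). The mTORC1 list had 7 higher and 5 lower in cerebellum and 7 and 4 in brainstem, against 5 and 6 in both after quantile scaling. Transcription factors had 4 higher and 1 lower in both, against 3 and 4 and then 2 and 4 after quantile scaling.

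Single genes of these lists differed strongly from liver. The nuclear exporter Xpo1 gave 2.55 in cerebellum and 2.50 in brainstem, Eif4g3, a scaffold of the cap complex, 2.48 and 2.50, and Eef1a2, the elongation factor of neurons and muscle, 6.67 and 6.88. The translation repressor Eif4ebp2 had -3.32 and -3.33. Pabpc1, the poly(A)-binding protein that ataxin-2 binds, had smaller differences of -0.69 and -0.64. All 5 kept their direction in both comparisons with liver under both other scalings.

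Between genotypes no gene of any of these lists was called in any tissue by limma. The biogenesis genes lay above 0 for 32 of 39 in liver, with a median of 0.10, for 25 in cerebellum and for 19 in brainstem. Nolc1, a nucleolar chaperone of snoRNPs, had the largest difference in liver at 0.57 (SE 0.122, adjusted p = 0.0708, limma), followed by Nop58 at 0.34 (adjusted p = 0.179) and the helicase Ddx21 at 0.30 (adjusted p = 0.291). Pabpc1 had 0.08, 0.12 and 0.10 in cerebellum, brainstem and liver, all with an adjusted p above 0.05. The medians of the other TOP mRNAs were 0.01, 0.03 and 0.06.

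**Figure D5:**
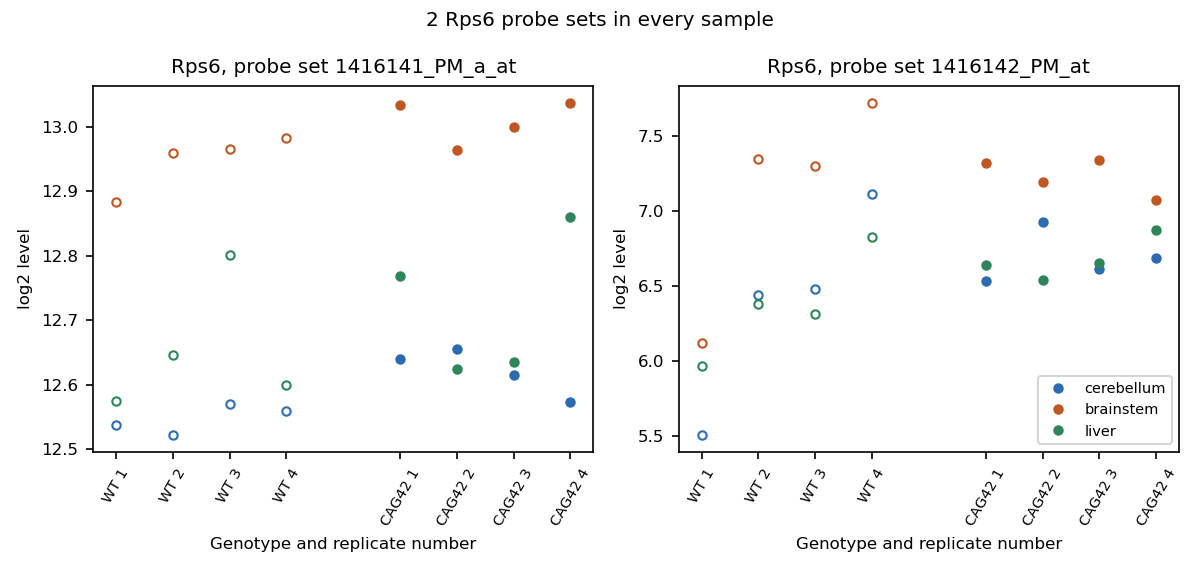
Log2 level of a dim and of the brightest probe set of Rps6 in all 24 samples, by genotype and by the replicate number in the labels, with a symbol for each tissue. In WT the dim probe set is lowest at number 1 and highest at number 4 in all 3 tissues, and the brightest probe set stays between 12.52 and 13.04 throughout.

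Rps6, the small subunit protein phosphorylated by the S6 kinases, was measured by 3 probe sets, and 1 of them varied between mice far more than the others. The dim probe set gave WT values of 5.50, 6.44, 6.48 and 7.11 in cerebellum, against 6.12, 7.35, 7.30 and 7.72 in brainstem and 5.96, 6.38, 6.31 and 6.83 in liver, listed by replicate number. In CAG42 mice its values were 6.53, 6.92, 6.61 and 6.68, then 7.32, 7.19, 7.34 and 7.07, then 6.64, 6.54, 6.65 and 6.87. In WT, number 1 was the lowest and number 4 the highest of its group in every tissue. The means by replicate number spanned 1.36 in WT, against a median of 0.163 over all members, and the number accounted for 90.8% of the variation within WT groups. This probe set was chosen after its values were seen. The brightest probe set of Rps6 did not show this spread, and its genotype differences were 0.07, 0.06 and 0.07.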

How the data were processed

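RNA (RNeasy Midi, per the labels) from 24 tissue samples was hybridised to Affymetrix arrays. The authors scanned them with AGCC 3.0 and deposited log2 values made by RMA in R 2.7.0, a step that subtracts background, normalises between arrays and summarises the probes of a set. RMA compresses low values, and no genome build is given in the sources used here.

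The deposited log2 values were used without further scaling. Of 45141 probe sets, 104 controls were left out, 28898 of the rest had 1 gene in the platform annotation, 551 several and 15588 none. The limma package (version 3.58.1, R 4.3.3) fitted all 24 arrays with 1 mean for each tissue and genotype, and p-values were adjusted by Benjamini-Hochberg over 45037 probe sets, called below 0.05. The fit was tested on simulated data. Members and lists were chosen with earlier results of these data known.

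Named were the member genes of lowest p per genotype comparison (6 per tissue), the 4 called genes of largest difference each way per WT comparison, the 2 of lowest p per difference of genotype effects, the stalk proteins, Rpsa and the paralogue pairs. Genes shown beyond this rule were chosen after their values were seen, as were Rpl6, Rps18, Rps6 and the genes separated by genotype. Of each other list up to 3 genes of lowest p were eligible. Replicates were numbered in the labels. For pairing by number, deviations from group means were correlated. Same-numbered cerebellum and brainstem samples of a genotype correlated in all 8 pairs (r = 0.224 to 0.375), although the labels name no animal. The main fit used no pairing, and the replicate number entered only as a block in the alternatives. Pairs with liver fell as low as 0.0417, although in each of these groups all 4 samples correlated best with their own number, and the genotypes were not paired (-0.299 to 0.214). Alternatives covered filters, scalings, probe set choice, array weights, blocks and leaving out each array. Promoters came from a RefSeq table on GRCm38.p6.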

Additional observations from a re-analysis of the deposited data

Results flagged for a closer look

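A sample was singled out where its gap to the nearest of the other 3 took up most of the range of its group (Dixon's test). Among 192 groups of 4 samples of the 32 named genes, 9 had such a sample. Over all 71 genes it was 4.46% of 426 groups (19 groups), and chance gives about 1 in 20. In WT cerebellum these were Rps4x in replicate 4 (11.83), Rps16 in replicate 4 (11.33) and Rpl22 in replicate 2 (9.082). In WT brainstem they were Rps4x in replicate 3 (12.31), Rpl13a in replicate 1 (11.98), below the others, and Rpl30 in replicate 3 (11.68). Rplp1 was low in WT liver replicate 4 (12.38), Rps21 high in CAG42 brainstem replicate 3 (12.9), and Rpl29 high in CAG42 cerebellum replicate 2 (11.28).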

How the results depend on the processing

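Between genotypes and for the differences of genotype effects, no ribosomal protein probe set was called under the filter, the probe set choices, the scalings, the array weights, the blocks or the tissues taken alone. Leaving out single arrays gave 0 to 0 in cerebellum and brainstem and for each difference of effects, and 0 to 3 in liver, with 3 only without WT replicate 1. The replicate block within a tissue also gave 0 in each. In the WT arrays of each pair of tissues alone, the replicate block gave 120 (122 without it) for cerebellum against brainstem, 68 (75) for cerebellum against liver and 106 (106) for brainstem against liver. As a random block over all arrays the number gave 120, 89 and 117. Between WT tissues the counts for cerebellum against brainstem, cerebellum against liver and brainstem against liver were 60, 48 and 58 with all probe sets of a gene averaged, 67, 44 and 60 with the brightest and 27, 25 and 32 of 37 without _s_at, _x_at and _a_at probe sets, all of which test fewer features. Quantile scaling gave 72 for cerebellum against brainstem, and subtracting the median of the ribosomal protein genes, an alternative added after the data were seen, gave 56 (42 higher and 14 lower). The cause of both was not tested. Leaving out single arrays gave 116 to 119, 84 to 86 and 109 to 117. Of 44 results of named genes, Rpl14 in cerebellum against liver turned to -0.36 under quantile scaling and Rpl22 in brainstem against liver to 0.39 with the mean of its probe sets. The 24 arrays and signals near the lower end of the scale limit what can be seen.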

Other observations

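A dim probe set of Rpl17, chosen after its values were seen, also varied by replicate number. Its WT values by number were 4.41, 4.22, 5.30 and 5.34 in cerebellum, then 6.12, 6.28, 7.12 and 6.94 in brainstem, then 4.24, 4.14, 4.65 and 4.59 in liver. In CAG42 mice they were 5.09, 5.32, 4.35 and 5.41, then 7.03, 6.83, 6.23 and 6.92, then 5.09, 5.31, 3.98 and 4.75. Numbers 1 and 2 were low in WT and number 3 was low in CAG42, in all 3 tissues. The number accounted for 88.5% of the variation within WT groups and 87.7% within CAG42 groups.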
